A study of Arabidopsis thaliana with 12 samples.

Results

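Genes that code for TIR-domain immune receptors were followed in whole Arabidopsis thaliana seedlings of a chitin receptor mutant and of wild type, each given chitooctaose or water. The members are 60 loci taken by locus identifier as TIR, TIR-NBS or TIR-NBS-LRR genes, and a member counts as measured where the platform annotation ties a probe set to that gene alone. This held for 42 of the 60, among 13286 genes with such a probe set on the array. Of the 14 short members, which code for a TIR domain alone or with a nucleotide-binding site, 10 were measured, and of the 46 full-length TIR-NBS-LRR receptors 32 were. The other 18 were not analysed here, RPP1, RPP4, RPP5, SNC1, RPS4, RLM1, RLM3, LAZ5 and WRR4 among them. AT5G41740 and AT5G41750 are 2 of these 18, since each is named only on a probe set of several genes.

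The arrays were one-colour Affymetrix arrays, 3 per group and 12 in all, and the titles call the 3 biological replicates. The groups were the mutant with chitooctaose, the mutant with water, wild type with chitooctaose and wild type with water. Chitooctaose, a soluble fragment of the chitin of fungal cell walls, was given at 1 um, as the labels write it, for 30 minutes after 14 days in liquid MS medium under constant light at 23 °C. Both genotypes are in the Col-0 background, and the labels describe the mutant only as Col-0 with a mutation in the chitin receptor, without naming an allele, the number of lines or whether seedlings were pooled. CERK1, the LysM receptor kinase of chitin perception in Arabidopsis, was not analysed here, so the genotype labels were not checked by its transcript. The samples are whole seedlings, in which fewer cells of a type and less RNA per cell cannot be told apart.

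TIR domains of plant receptors are enzymes that cleave NAD+ when the receptors assemble, and the small nucleotides they release are read by complexes of EDS1 with PAD4 or SAG101, which in turn engage the helper receptors ADR1 and NRG1. Full-length members sense pathogen molecules through leucine-rich repeats, while the nucleotide-binding site acts as a switch. Short members lack the repeats, and some cause cell death when overproduced in Nicotiana benthamiana. Chitin is perceived at the cell surface by LysM receptor kinases, a branch of immunity separate from the receptors inside the cell described here.

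Values are probe set intensities on a linear scale, and changes are differences of mean log2(intensity + 16) with the standard error of a linear model (limma) over all 12 arrays. The added 16 makes the change of a dim probe set smaller than the ratio of its intensities. A gene was called where its Benjamini-Hochberg adjusted p was under 0.05 over all 22746 probe sets tested. Over the 12 arrays the median intensity ran from 177.5 to 200.5. Residual SDs ran from 0.142 to 0.210, the highest being that of replicate 1 of wild type with chitooctaose. No gene's level is set against another's, since intensities also depend on the probes, and the rank of a probe set's mean intensity serves only to mark it as dim or bright. Of the root and root hair markers 4 of 5 were measured, with summed intensities of 10550 to 11342 in the mutant with chitooctaose, 10311 to 11523 in the mutant with water, 9801 to 11087 in wild type with chitooctaose and 10880 to 11306 in wild type with water, most of it from PYK10. All 4 lay outside the dimmest 40% of probe sets, while the 2 measured pollen and flower markers of 5 lay within it and summed to 18.9 to 91.1 over the 12 arrays. The 6 leaf markers and the 3 seed storage genes listed were not analysed here.

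In wild type, chitooctaose raised many of the listed TIR-domain genes. Of the 42 measured, 25 rose and none fell (limma), whereas 8.82% of all probe sets tested rose and 10.1% fell. At an unadjusted limma p under 0.05 were 31 members, beside 6945 of the 22746 probe sets. The list was chosen with earlier results of these data known, so these shares describe its genes and not the whole family. The members' median change was 0.72 on the log2 scale, beside -0.04 for all probe sets. All 3 chitooctaose arrays lay above all 3 water arrays for 29 of the 42, a separation found for 13.1% of all probe sets. The reverse was found for none of the 42 and for 19.8% of all probe sets. At least 2-fold increases that were called numbered 16, beside 2.74% of all probe sets.

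Among short members 8 of 10 rose, with a median of 2.14 over the 10. AT1G66090, a TIR-NBS gene, had intensities of 2723, 3130 and 2747 with chitooctaose, against 84.3, 85.8 and 85.5 in water. Its change of 4.83 ± 0.11 (adjusted p = 7.3e-15) was the largest of the 42, and the ratio of mean intensities was 33.6. The water arrays of this gene differed by little, with an SD of 0.831.

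AT1G72920, which codes for little more than a TIR domain, gave 1427, 1664 and 1662 with chitooctaose, against 112, 136 and 127 in water, a change of 3.50 ± 0.10 (adjusted p = 7.2e-14). Another gene of a TIR domain alone, AT1G57630, gave 376, 490 and 422, against 31.3, 33.7 and 39.2, a change of 3.13 ± 0.13 (adjusted p = 6.2e-12). The ratios of mean intensities were 12.7 and 12.4, and neither gene's groups came near each other. The TIR-NBS gene AT1G72900 stood at 2687, 2759 and 2270 with chitooctaose, against 344, 377 and 343 in water (2.80 ± 0.11). AT2G32140, also short, was dim, with 130, 196 and 186, against 9.45, 18.8 and 20.1 (2.54 ± 0.19). Both were clearly separated, although AT2G32140 lay among the dimmest 40% of probe sets.

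Smaller increases were seen in 3 further TIR-NBS genes. AT1G72940 had 3021, 3645 and 3133 with chitooctaose, against 967, 1034 and 898 in water (1.74 ± 0.09). AT3G04210, which codes for TN13, a partner of the importin MOS6, had 201, 213 and 224, against 43.4, 68.5 and 56.7 (1.68 ± 0.13). AT1G72950 had 280, 328 and 332, against 128, 124 and 129 (1.20 ± 0.11). In each of the 3 the groups did not overlap, and the adjusted p was at most 1.9e-07.

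The remaining short members, AT1G72890 and AT1G17615, did not pass the test. AT1G72890, a TIR-NBS gene, had 76.7, 83.8 and 111 with chitooctaose, against 97.8, 112 and 120 in water, a change of -0.25 ± 0.13 (adjusted p = 0.2). Its groups overlapped, and the sign was opposite to that of the 8 that rose. Without replicate 3 of the chitooctaose arrays it was called lower, at -0.39. AT1G17615 codes for TN2, on which the autoimmunity of exo70B1 mutants depends, and it gave 23, 10.8 and 4.43, against 26.8, 8.18 and 8.69 in water, a dim probe set with overlapping groups. At -0.09 ± 0.29 its standard error was the largest of the short members.

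**Figure D1:**
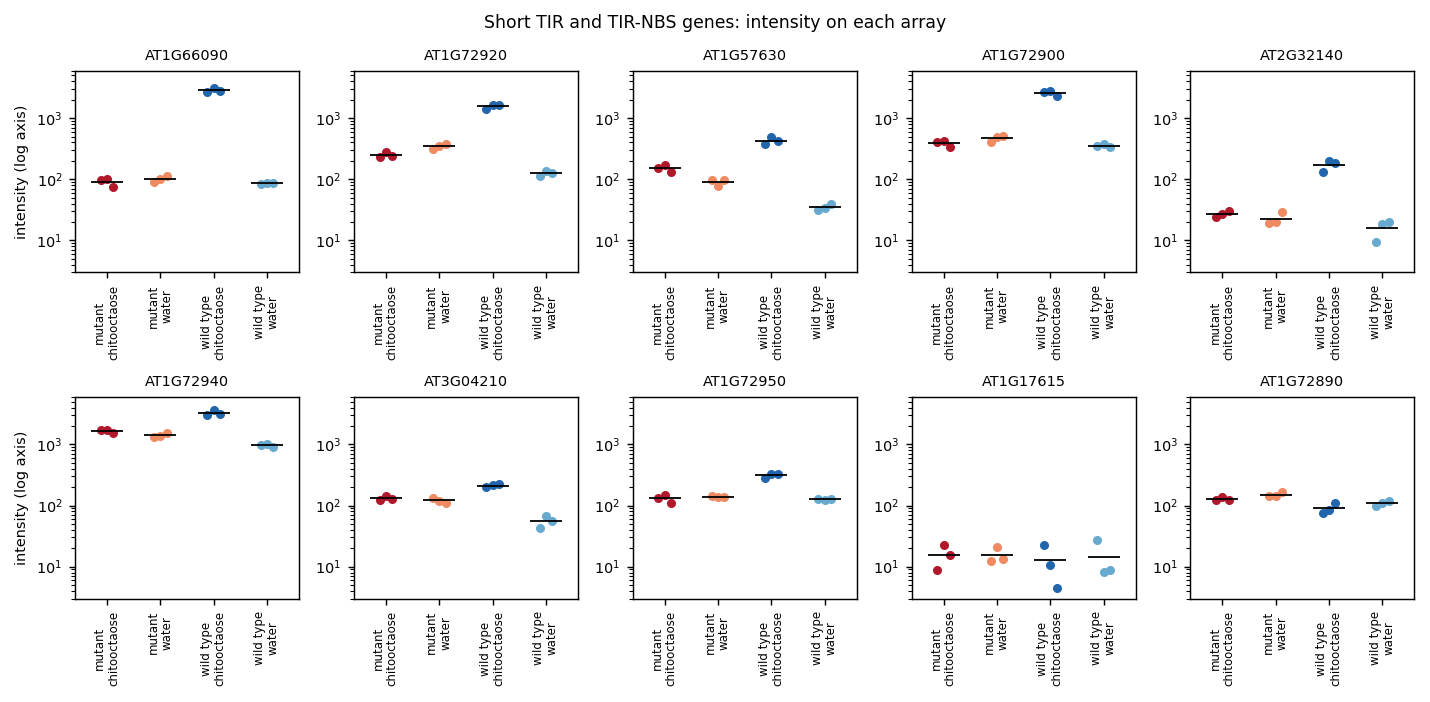
Intensity of the 10 measured short TIR and TIR-NBS genes on each of the 12 arrays (points, log axis), with the group mean as a line and 3 arrays per group. In 8 panels the wild type arrays with chitooctaose lie above the arrays of the other 3 groups, while AT1G17615 and AT1G72890 show no such rise.

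Full-length receptors rose too, with a smaller median change. Of 32 measured, 17 rose and none fell, with a median change of 0.63. AT5G58120, known as the hybrid necrosis locus DM10, gave 608, 790 and 785 with chitooctaose, against 128, 116 and 117 in water, the largest change of its class at 2.44 ± 0.14 (adjusted p = 3.1e-10). AT3G44630, a receptor gene of the RPP1 family, gave 1087, 1217 and 1248, against 318, 297 and 323 (1.87 ± 0.09). AT5G22690 gave 615, 739 and 746, against 189, 195 and 192 (1.78 ± 0.09). In all 3 genes, AT5G58120, AT3G44630 and AT5G22690, replicate 1 was the lowest of the chitooctaose arrays and still stood well above every water array.

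AT4G19520 gave 261, 305 and 259 with chitooctaose, against 60.4, 83.5 and 58.4 in water (1.81 ± 0.15). AT1G56520 was the least even, with 66.4, 178 and 263, against 9.27, 31.1 and 24. Its change of 2.18 ± 0.34 (adjusted p = 0.00012) carried the largest standard error of the 42, and replicate 1 of both groups was the low one. The other 12 full-length genes that rose changed by 0.43 to 1.49. Above 2-fold were AT1G63750 (1.49 ± 0.14), AT1G56540 (1.12 ± 0.17), which lies near WRR4, and AT5G40910 (1.09 ± 0.13). The others include AT1G63880, which is RLM1B of the resistance to the fungus Leptosphaeria maculans (0.97 ± 0.10), and AT5G11250, known as BURNOUT1 (0.86 ± 0.09). AT1G72840, at the low end of this range, had an adjusted p of 0.042 and kept its call in 2 of 6 leave-one-out fits, each lacking 1 array, with changes of 0.31 to 0.54. AT2G14080 (0.013) and AT1G63740 (0.011) did so in 5 of 6 each.

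For the 15 full-length genes that did not pass the test, changes ran from -0.05 to 0.72. All of them lay among the dimmest 40% of probe sets. Their standard errors had a median of 0.20, against 0.14 for the 17 that rose. AT1G17600, which codes for SOC3, the receptor that works with CHS1 and TN2, had the highest of these values (0.72 ± 0.26, adjusted p = 0.067). It gave 52.6, 23 and 29.3 with chitooctaose, against 11.9, 27.2 and 6.29 in water. Its groups overlapped. Among members called in none of the 5 comparisons, the 2 with the highest mean signal were AT3G51560 at 0.32 ± 0.15 and AT1G63730 at 0.15 ± 0.15. Both still lay within the dimmest 40%.

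Set side by side, short members had the larger median change (2.14, against 0.63 for full-length ones), and 8 of 10 against 8 of 32 reached an estimate of at least 2-fold. The ranges overlapped, from -0.25 to 4.83 for short and from -0.05 to 2.44 for full-length members, and 5 of the 10 short genes lay above the highest full-length one. This contrast is a description and was not tested, since the members are not replicates. The classes were assigned by hand, and 5 of the 10 short genes belong to 1 run of neighbouring genes, described below. The classes were also unlike in the signal of their probe sets. Outside the dimmest 40% of probe sets lay 8 of the 10 short members, against 12 of the 32 full-length ones. In a fit of only these brighter probe sets, 7 of the 8 short and all 12 full-length members rose. The rank that defines them includes the wild type arrays with chitooctaose, so the response itself enters it. Ranked on the other 3 groups, 5 of 10 short and 11 of 32 full-length members lay outside, and AT1G66090, AT1G57630 and AT3G04210 were the short ones that passed only through the omitted group. The added 16 holds down changes of dim probe sets. With 1 added in place of 16 the medians were 2.39 for short and 0.79 for full-length members, and with 64 they were 1.62 and 0.38. The part of signal in the contrast was not tested further.

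A further class was set beside these, the coiled-coil receptors, listed as genes with a nucleotide-binding site and repeats but no TIR domain. Without protein sequences, whether each listed gene codes for the repeats was not checked. Of 52 listed genes 25 were measured, and 6 of the 25 rose in wild type and none fell, with a median of 0.20. Of all probe sets 8.82% rose and 10.1% fell. In the mutant none of the 25 was called. The difference of responses was called for 4, all negative, beside 6.62% of all probe sets negative. After chitooctaose 6 were lower in the mutant than in wild type, beside 9.5%, and in water 2 were higher, beside 4.03%. CW9 rose by 0.96 ± 0.15 and AT1G15890 by 0.81 ± 0.14, and no coiled-coil estimate on the log2(intensity + 16) scale reached 2-fold, while 4 of the 25 lay outside the dimmest 40%. No list was tested against another.

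**Figure D2:**
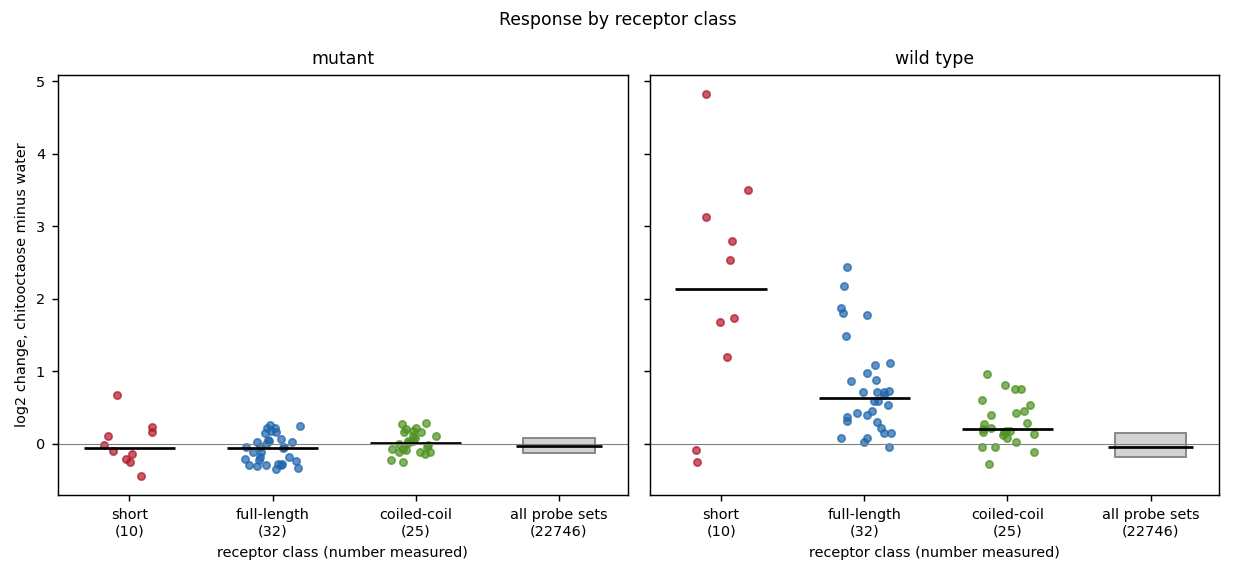
Log2 change with chitooctaose in the mutant (left) and in wild type (right) for each measured gene of the short, full-length and coiled-coil classes (points, with the class median as a line). The grey box gives the quartiles and median of all 22746 probe sets. In wild type the class medians were 2.14, 0.63 and 0.20 beside -0.04 for all probe sets, and in the mutant all lay between -0.06 and 0.01.

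Neighbouring genes of the run from AT1G72890 to AT1G72950, all short, had estimates of either sign. In the TAIR10.1 gene table these 7 genes follow each other with no protein-coding gene between them, and 5 were measured. In wild type their changes, in gene order, were -0.25, 2.80, 3.50, 1.74 and 1.20. The first did not pass the test and the others did. The full-length neighbours given here all had positive estimates. AT4G19510 rose by 0.67 ± 0.10 beside AT4G19520 at 1.81 ± 0.15. In the run of AT1G63730, AT1G63740 and AT1G63750 the changes were 0.15, 0.73 and 1.49, of which the last 2 were called. Neither AT3G51560 (0.32) nor its neighbour AT3G51570 (0.03) passed the test. Receptor genes in such runs can be alike in sequence, and whether probes also bound a neighbour's transcript was not tested.

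**Figure D3:**
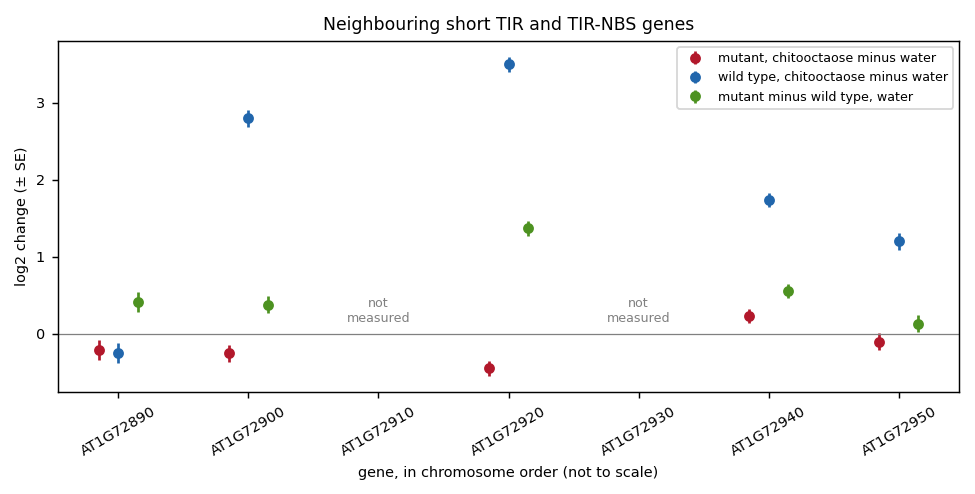
Log2 changes (± SE of the fit on 3 arrays per group) along 7 consecutive short TIR and TIR-NBS genes, drawn in chromosome order and not to scale, for the mutant response, the wild type response and the mutant minus wild type in water. The wild type response peaks at 3.50 for AT1G72920 and is -0.25 for AT1G72890 at the end of the run.

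In the receptor mutant the same dose gave few calls. Of the 42, 1 rose and 1 fell (limma), and 7 had an unadjusted p under 0.05, beside 2465 of the 22746 probe sets. Over all probe sets 1.49% were called, 0.721% higher and 0.769% lower. The median change was -0.06, with -0.03 for all probe sets. Both calls were in short genes. AT1G57630 had 150, 174 and 133 with chitooctaose, against 96.7, 77.2 and 95.6 in water, a rise of 0.67 ± 0.13 (adjusted p = 0.012). AT1G72920 moved the other way, with 235, 276 and 237, against 318, 351 and 374, and fell by 0.45 (adjusted p = 0.028). The groups of both genes were fully separated. Such a separation was found upwards for 1 of the 42, beside 7.06% of all probe sets, and downwards for 6, beside 11.4%.

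Each of these calls rested on a narrow margin. AT1G57630 was not called without replicate 1 or replicate 2 of the mutant with chitooctaose (0.67 and 0.57) or replicate 2 of the mutant with water (0.58), and its highest adjusted p was 0.089. AT1G72920 was not called without replicates 1 or 3 of the mutant with chitooctaose (-0.42 each) or replicates 2 or 3 of the mutant with water (-0.45 and -0.40), with a highest adjusted p of 0.16. For the other 40 members the mutant changes ran from -0.35 to 0.26. AT1G66090 stood at 97.5, 102 and 75 with chitooctaose, against 90.6, 99.9 and 115 in water (-0.14 ± 0.11), and AT5G58120 at 101, 134 and 121, against 104, 116 and 151 (-0.04 ± 0.14). The groups of both genes overlapped. AT1G72900 had 412, 423 and 339 with chitooctaose, against 405, 490 and 508 in water (-0.25 ± 0.11). AT1G72940 had 1753, 1748 and 1543, against 1345, 1394 and 1560 (0.23 ± 0.09), and AT3G04210 had 125, 143 and 127, against 131, 120 and 112 (0.11 ± 0.13). These groups overlapped too. AT2G32140 had 23.7, 27.2 and 30.4, against 19.3, 19.7 and 28.8 (0.16 ± 0.19), and AT1G72950 had 135, 147 and 111, against 145, 137 and 139 (-0.10 ± 0.11). AT1G72890 was lower on all 3 chitooctaose arrays without passing the test, at -0.21 ± 0.13 (adjusted p = 0.64).

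**Figure D4:**
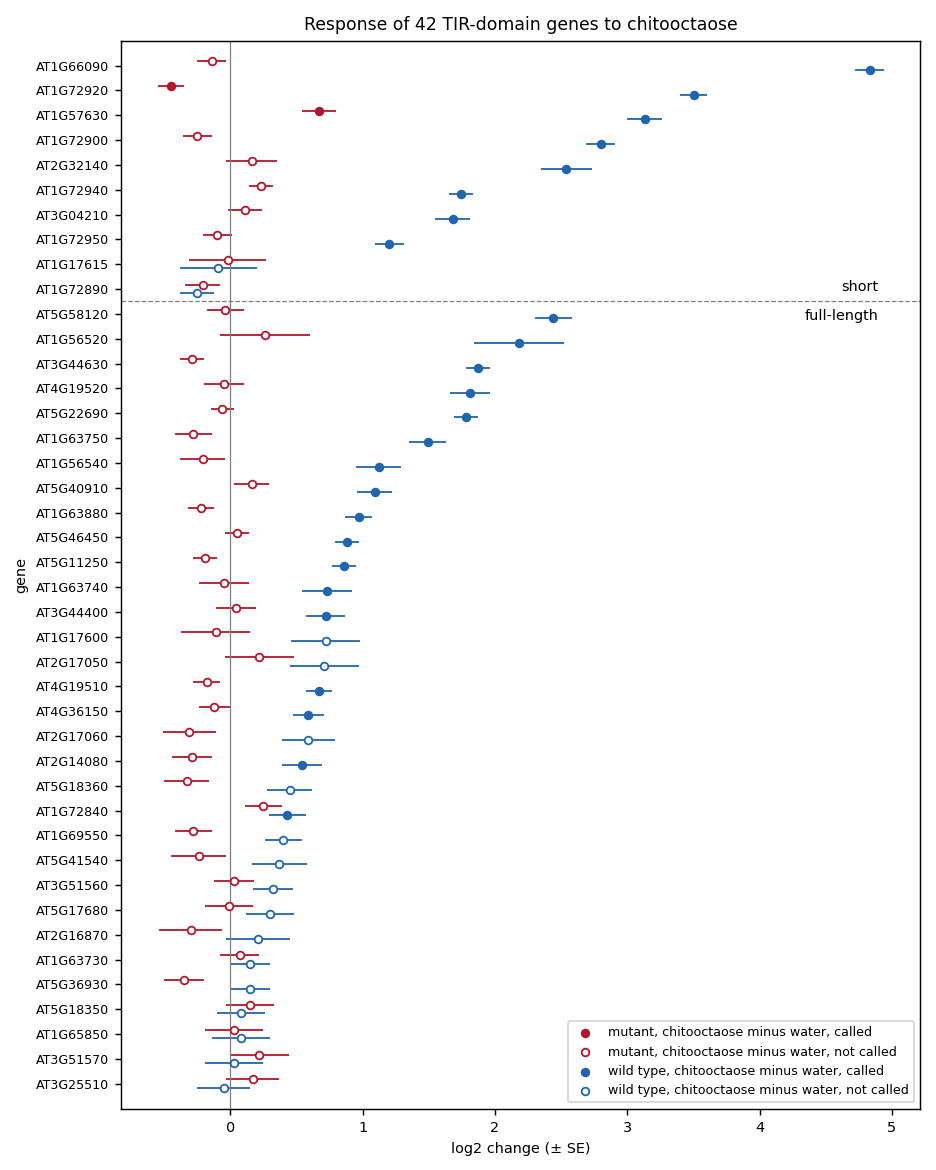
Log2 change with chitooctaose (± SE of the fit, 3 arrays per group) of all 42 measured members in the mutant (red) and in wild type (blue), short genes above the dashed line and full-length ones below it, each sorted by the wild type change. Filled points were called. The 25 filled wild type points run from 0.43 to 4.83, while the mutant has 2 filled points, at -0.45 and 0.67.

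The difference of the responses, mutant minus wild type, was called for 24 members, all negative (limma), beside 11.3% of all probe sets, 6.62% negative and 4.66% positive. At an unadjusted limma p under 0.05 were 29 members, beside 5130 of the 22746 probe sets. The median over the 42 was -0.84, with -1.97 for short and -0.78 for full-length members. AT1G66090 differed by -4.97 ± 0.16 (adjusted p = 1e-12), AT1G72920 by -3.96 ± 0.14, AT1G72900 by -3.05 ± 0.15 and AT5G58120 by -2.49 ± 0.19. AT1G57630, the gene that rose in both genotypes, differed by -2.46 ± 0.18 (adjusted p = 3.1e-08), so its rise was smaller in the mutant. In all, 8 short and 16 full-length members were called. Of the 25 that rose in wild type, AT1G63740, AT3G44400 and AT1G72840 had no called difference, at -0.78, -0.69 and -0.18. AT5G18360 and AT1G69550 had one (-0.77 and -0.68) without a called rise in wild type, with the call kept in 2 of 12 leave-one-out fits for AT5G18360 and 3 of 12 for AT1G69550.

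Without chitooctaose some members were already higher in the mutant, most of them short. In water 7 of the 42 were higher in the mutant and none lower (limma), beside 10.3% of all probe sets called, 4.03% higher and 6.3% lower. At an unadjusted limma p under 0.05 were 12 members, beside 4901 of the 22746 probe sets. Of the 10 short genes 5 were higher, with a median of 0.39 over the 10, and of the 32 full-length genes 2 were, with a median of 0.03. Fully separated groups with the mutant above were found for 8 short and 7 full-length members, beside 14.3% of all probe sets. The reverse held for 1 full-length member, beside 16.5%.

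AT1G72920 had 318, 351 and 374 in mutant water, against 112, 136 and 127 in wild type water, a difference of 1.37 ± 0.10 (adjusted p = 9.4e-08). AT1G57630 had 96.7, 77.2 and 95.6, against 31.3, 33.7 and 39.2 (1.06 ± 0.13). AT3G04210 had 131, 120 and 112, against 43.4, 68.5 and 56.7 (0.93 ± 0.13). None of these groups overlapped, and the ratios of mean intensities were 2.78, 2.59 and 2.15. AT1G72940 had 1345, 1394 and 1560 in mutant water, against 967, 1034 and 898 in wild type water (0.56 ± 0.09). The full-length genes were AT5G46450, with 309, 327 and 332, against 213, 243 and 206 (0.52 ± 0.09), and AT1G63880, with 487, 509 and 587, against 391, 383 and 348 (0.48 ± 0.10). All 7 genes higher in mutant water also rose with chitooctaose in wild type, a comparison that shares the 3 wild type water arrays.

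AT1G72900, with the smallest difference of the 7, had 405, 490 and 508 in mutant water, against 344, 377 and 343 in wild type water, a difference of 0.38 ± 0.11 (adjusted p = 0.029) that was not called without mutant water replicates 2 or 3 (0.34 and 0.32) or wild type water replicates 1 or 3 (0.36 each). AT1G66090, which responded most in wild type, had 90.6, 99.9 and 115, against 84.3, 85.8 and 85.5 (0.21 ± 0.11, adjusted p = 0.29) and was not called. AT1G72890 was near the threshold, with 145, 141 and 167, against 97.8, 112 and 120 (0.41 ± 0.13, adjusted p = 0.057). Of the root markers, the root hair expansin genes EXPA7 and EXPA18 were lower in mutant water than in wild type water, at log2 differences of -0.65 and -0.62, and lower with chitooctaose than with water in wild type, at -0.57 and -0.58, while PYK10 (-0.01 and -0.05) and AT3G24480 (0.16 and 0.08) were called in neither. Their part in the members' values was not tested.

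**Figure D5:**
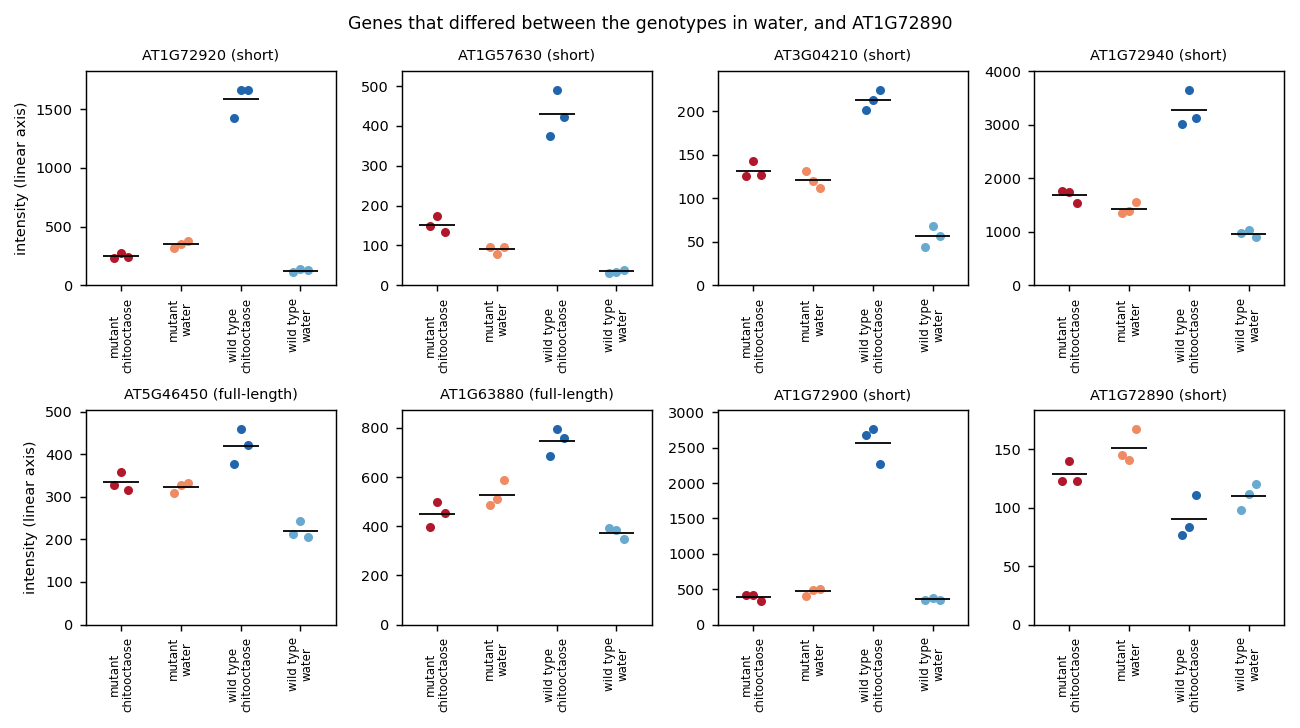
Intensity on each array (points, linear axis from 0, line at the mean of 3 arrays) for the 7 members that differed between genotypes in water and for AT1G72890. In the first 7 panels the 3 mutant water arrays lie above the 3 wild type water arrays and the wild type arrays with chitooctaose lie highest. In the panel of AT1G72890 the wild type arrays with chitooctaose run from 76.7 to 111 and include the lowest of the 12.

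Since low wild type water values raise the wild type response as well, wild type with chitooctaose was also set against the mutant water arrays, a choice made after the values were seen. By it 24 of the 25 genes were called higher, all 8 short ones included, beside 9.43% of all probe sets. The 25 had been picked with the same wild type chitooctaose arrays, which favours their calls here, whereas the 9.43% is over unselected probe sets. Genotype and treatment both differ in this comparison, and their parts cannot be told apart in it. The exception was AT2G14080. The short median was then 1.62 and the full-length median 0.51. AT1G72890, which had not passed the test against wild type water, was called lower here, at -0.66.

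After chitooctaose the genotypes stood apart in the opposite direction. In the mutant 26 of the 42 were lower than in wild type and 1 was higher, beside 17.3% of all probe sets called, 9.5% lower and 7.77% higher. The lowest value was that of AT1G66090 (-4.75 ± 0.11), with 97.5, 102 and 75 in the mutant, against 2723, 3130 and 2747 in wild type. AT1G72900 (-2.67 ± 0.11), AT1G72920 (-2.59 ± 0.10), AT5G58120 (-2.46 ± 0.14), AT2G32140 (-2.10 ± 0.19) and AT5G22690 (-2.06 ± 0.09) followed. In these 6 genes no mutant array reached the lowest wild type array. AT3G04210 and AT1G72940, both also higher in mutant water, were lower here at -0.63 and -0.95. The gene higher in the mutant was AT1G72890, with 123, 140 and 123, against 76.7, 83.8 and 111 (0.45 ± 0.13, adjusted p = 0.021). This call was lost without mutant chitooctaose replicate 2 (0.40) or wild type chitooctaose replicates 1 or 2 (0.36 and 0.41). AT5G46450 (-0.31, adjusted p = 0.029) kept its call in 2 of 6 leave-one-out fits and AT2G14080 in 4 of 6. This comparison shares arrays with both responses.

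Of 10 genes of the EDS1 pathway and its helper receptors 3 were measured. SAG101, the lipase-like partner of EDS1, gave -0.06 ± 0.16 in the mutant, rose by 1.11 ± 0.16 in wild type and was higher in mutant water by 0.58 ± 0.16 (adjusted p = 0.028). The water call was kept in 0 of 6 leave-one-out fits, with adjusted p-values of 0.073 to 0.092. AT3G48080, the other EDS1 gene of Col-0, gave 0.04 ± 0.14 in the mutant and 0.12 ± 0.14 in wild type. AT5G66890, of the NRG1 group, gave -0.04 ± 0.27 and -0.28 ± 0.27 in the same order. None of these 4 values was called, and the probe sets of both genes lay among the dimmest 40%. After chitooctaose AT3G48080 was lower in the mutant than in wild type, at -0.48 ± 0.14 (limma adjusted p = 0.027). This call was kept in 2 of 6 leave-one-out fits. In water the gene stood at -0.40 ± 0.14 (limma adjusted p = 0.1), and its difference of responses was -0.09 ± 0.2, neither of them called. SAG101 was lower after chitooctaose at -0.59 ± 0.16 (limma adjusted p = 0.017), kept in 3 of 6, with overlapping groups. Its difference of responses was -1.17 ± 0.23 (limma adjusted p = 0.0019), a call kept in all 12 leave-one-out fits. Of 12 chaperones and regulators of such receptors only SGT1A was measured, a co-chaperone that works with HSP90. It gave 0.08 ± 0.09 in the mutant and rose by 0.92 ± 0.09 in wild type. The 12 listed genes of salicylic acid and systemic immunity were not analysed here.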

How the data were processed

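RNA of 12 samples was hybridised to one-colour Affymetrix arrays as biotinylated cRNA made from 8 ug of total RNA, per the labels' protocols. The authors deposited linear intensity values, 1 for each probe set, and their summary and scaling method was not stated in the labels or headers. No further scaling was applied. Without 64 control probe sets, log2(intensity + 16) was fitted with 1 mean per group in limma 3.58.1 (R 4.3.3, eBayes with trend), with two-sided p-values adjusted over 22746 probe sets. Figures were drawn with matplotlib 3.10.9 under Python 3.11.15, from tables made with pandas 2.3.3.

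Probe sets were named through the platform annotation, and loci through the TAIR10.1 table, without coordinates. Each of the 42 measured members had 1 probe set of its own. The planned split by protein length could not be made without protein sequences, so short and full-length members were assigned by hand from general knowledge of the loci. Members, lists and the comparison of classes were chosen with earlier results of these data known. Named genes are the 12 members with the largest called change in wild type, the 6 largest in each other comparison, all short members, members called in opposite directions in the 2 genotypes, and the 2 full-length members of highest signal called nowhere. Up to 4 called genes come from each other list. Any others were named after their values were seen.

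Results were recomputed with median centring, with quantile normalization, with 1 or 64 as the added value, without dim probe sets, with a replicate block, without the trend, with only the groups compared, and leaving out each array. P-values rest on the spread among arrays within groups, estimated over all 12 arrays together and across probe sets (eBayes). The titles call the arrays biological replicates, and part of the spread may still be technical. Having 3 arrays per group limits the precision.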

Additional observations from a re-analysis of the deposited data

Results flagged for a closer look

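The responses of the genotypes differed, by the test of that difference (limma, mutant minus wild type), for 24 members. For the 15 of them named by the rule on named genes, the differences were -4.97 for AT1G66090, -3.96 for AT1G72920, -3.05 for AT1G72900, -2.46 for AT1G57630, -2.37 for AT2G32140, -1.56 for AT3G04210, -1.51 for AT1G72940 and -1.30 for AT1G72950 among short genes. Among full-length ones they were -2.49 for AT5G58120, -2.16 for AT3G44630, -1.93 for AT1G56520, -1.86 for AT4G19520, -1.84 for AT5G22690, -1.19 for AT1G63880 and -0.83 for AT5G46450. Adjusted p-values ran from 1e-12 to 0.012, the highest that of AT1G56520, and each of these 15 calls was kept in all 12 leave-one-out fits. AT1G72920 alone of the 42 was called in opposite directions, lower in the mutant (-0.45) and higher in wild type (3.50). Groups of 3 arrays were not tested for single outlying arrays.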

How the results depend on the processing

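Under quantile normalization, median centring, pseudocounts of 1 and 64, the filter on dim probe sets, the replicate block and the fit of only the groups compared, no called change of a named member reversed its sign. The count of members called in the mutant was 1 without the mean-variance trend, in place of 2, and 0 to 2 without single arrays. Without single arrays the counts were 23 to 27 for the wild type response, 22 to 26 for the difference of responses, 6 to 8 in water and 24 to 29 after chitooctaose, while the medians of the wild type response ran from 2.06 to 2.25 for short and from 0.57 to 0.65 for full-length members. Without replicate 1 of wild type with chitooctaose, 8 short and 19 full-length members rose in wild type. With a pseudocount of 1 the short and full-length medians were 2.39 and 0.79, with 64 they were 1.62 and 0.38, and without the dimmest 40% of probe sets 2.27 and 0.92 over the 8 and 12 members left, a choice into which the response enters. Ranked without the wild type chitooctaose arrays, added after the values were seen, the medians were 1.74 over 5 short and 0.97 over 11 full-length members. Against mutant water arrays, added after the values were seen, the short median was 1.62. The replicate numbers were not treated as pairs in the main fit. Correlations of same-numbered arrays' deviations from group means ran from -0.129 to 0.223, beside -0.203 to 0.205 for other pairs. Such overlapping ranges cannot exclude a pairing in some groups. With the replicate block 8 short and 18 full-length members rose in wild type with medians of 2.14 and 0.63. Of named calls, AT1G72920 in the mutant and AT1G72900 in water were lost without the trend, and AT1G72890 after chitooctaose when only its groups were fitted. AT1G72940 in the mutant was called at 0.28 under quantile normalization and at 0.25 under median centring, and AT1G72890 in water was called in 6 alternatives. AT1G72890 in wild type was called lower at -0.39 without replicate 3 of wild type with chitooctaose, where 24 members rose and 1 fell. Over all probe sets, the wild type response was called higher for 2220 and lower for 3550 under quantile normalization, and for 1761 and 1645 when only its groups were fitted, in place of 2007 and 2291. The difference of responses was called positive for 2042 and negative for 1666 under quantile normalization, in place of 1060 and 1505. After chitooctaose, 3584 were higher in the mutant and 2128 lower under quantile normalization and 2768 and 2365 under median centring, in place of 1768 and 2161. In water, 1700 were higher in the mutant and 1560 lower under median centring, in place of 917 and 1434. Calls in the mutant numbered 676 and 672 under these scalings, in place of 339. Averaging probe sets of a gene was not run, since each member had 1. Outside the dimmest 40% lay 12 of 32 full-length and 4 of 25 coiled-coil genes.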
